A study of Mus musculus with 46 samples.

Results

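The fragment P016 is a stretch of mouse DNA over the start of the Klf2 gene, and it was one of 23 promoter fragments of the Klf2 locus that the series tested in reporter plasmids. All constructs of this locus that hold P016 were taken. In the Upstream assay these were the constructs with P016 as the first or the second of a pair of fragments, and in the Downstream assay those with P016 as the promoter of the reporter. They came to 566 constructs of 91657 in all, 343 of 89293 Upstream and 223 of 2364 Downstream. P016 spans chr8:72318657-72319107 of the mouse genome in the coordinates of the deposited tables, for which the submitters' processing notes name mm10. Klf2 lies on the plus strand from 72319062 to 72321654 in RefSeq annotation of the same build, so the fragment held 405 bases before the gene's first base and ended 45 bases after it. The values were measured in E14TG2a cells, an established mouse embryonic stem cell line, kept in medium with leukaemia inhibitory factor and a pair of kinase inhibitors (2i+LIF), which holds the cells in the naive pluripotent state. All groups share these cells and this medium, and no genotype or treatment was compared. For each biological replicate 16000000 cells received the plasmid pool by nucleofection and reporter RNA was taken 24 h later. There were 3 cDNA samples for the mix with the Klf2 Upstream library and 3 for the pooled Downstream libraries, and plasmid DNA of the pool served as the input. The Upstream mix also held the library of the Nanog locus. Upstream shares given below over all constructs, pairs or fragments cover both loci. Those of the comparison of P016 with the other promoters of its locus cover the Klf2 locus only.

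Activity is the ratio of barcodes in reporter RNA (cDNA) to barcodes in plasmid DNA, on a linear scale whose unit was set by the authors in a way not given in the sources used here. In the Upstream assay a plasmid held 1 or 2 fragments, called first and second here in the order of the deposited table. The sample titles name separate Singlet and Comb libraries for the Klf2 Upstream constructs. Which library gave the values of fragments alone was not settled here. A library difference therefore cannot be told apart from the effect of a second fragment. All pairs on a P016 strand were also set against the same values of P016 alone, so an error there would shift them together. In the Downstream assay P016 on its plus strand drove the reporter and a second fragment, the insert, was placed downstream. The partners were candidate cis-regulatory elements (cCREs), promoters and, Downstream, control sequences. The replicates share a plasmid pool, so the errors below cover transfection and RNA measurement but not differences between the plasmids of a construct. Barcodes and reads per construct, and so the depth behind each value, were not analysed here.

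Klf2 is a Krüppel-like zinc-finger transcription factor that binds GC-rich and CACC-type DNA. In naive mouse embryonic stem cells it works beside Klf4 and Klf5 in the network that maintains self-renewal, and outside these cells it is known for its roles in endothelium and in T-cell migration. A promoter fragment in such an assay brings its own start site, while an enhancer raises transcription from a promoter placed near it, in principle on either strand and from either side.

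The sequences below are the 250 bases before the RefSeq gene start of Klf2 and of 3 genes whose starts lie in partners with large effects on P016, so that the promoter and its partners can be compared. Zfp617 starts in cCRE E007, the strongest activating cCRE. Gm39196, a long noncoding RNA gene, starts in E030, the cCRE with the lowest mean index Downstream. Smim7 starts in promoter fragment P022, the most active promoter alone. They are given 5′ to 3′ on the gene's strand, from RefSeq on build GRCm38.p6. Capitals mark matches on either strand to the GC box GGGCGG, to the CCAAT box, to the TATA element TATAAA or to the CACC-type motif CCACCC.
Klf2, in P016, chr8:72318812-72319061, plus strand: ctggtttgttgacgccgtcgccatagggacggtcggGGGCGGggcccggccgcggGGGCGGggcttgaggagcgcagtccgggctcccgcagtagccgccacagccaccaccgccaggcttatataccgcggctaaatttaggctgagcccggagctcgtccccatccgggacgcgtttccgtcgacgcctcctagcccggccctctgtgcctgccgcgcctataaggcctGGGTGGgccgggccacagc
Zfp617, in E007, chr8:71922575-71922824, plus strand: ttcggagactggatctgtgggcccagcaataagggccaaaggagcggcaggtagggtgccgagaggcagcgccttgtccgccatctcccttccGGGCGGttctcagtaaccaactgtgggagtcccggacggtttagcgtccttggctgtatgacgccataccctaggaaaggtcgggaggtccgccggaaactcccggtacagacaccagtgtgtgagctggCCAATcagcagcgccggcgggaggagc
Gm39196, in E030, chr8:72125925-72126174, minus strand: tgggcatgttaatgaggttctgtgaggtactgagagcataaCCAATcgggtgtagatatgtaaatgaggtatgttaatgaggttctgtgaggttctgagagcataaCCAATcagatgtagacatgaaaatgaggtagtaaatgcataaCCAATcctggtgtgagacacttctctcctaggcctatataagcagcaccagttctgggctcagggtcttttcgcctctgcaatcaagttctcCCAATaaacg
Smim7, in P022, chr8:72571049-72571298, minus strand: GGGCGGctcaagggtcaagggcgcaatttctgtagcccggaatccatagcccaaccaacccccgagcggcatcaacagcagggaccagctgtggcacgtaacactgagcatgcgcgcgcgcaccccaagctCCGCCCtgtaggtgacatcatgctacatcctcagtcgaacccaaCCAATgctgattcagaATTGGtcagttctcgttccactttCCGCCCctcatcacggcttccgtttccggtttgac
The windows of Klf2, Zfp617 and Gm39196 lie wholly in the tested fragments, and 246 of the 250 bases of the Smim7 window do. The Klf2 window held 2 matches to GGGCGG and 1 to CCACCC, and none to CCAAT or TATAAA. Its GC content was 71.2% with 29 CpG dinucleotides, above 92.2% and 93.2% of the 32851 RefSeq windows of this length. The Zfp617 window held 1 match to the GC box and 1 to the CCAAT box, and the Smim7 window 3 and 2. The Gm39196 window held 4 matches to the CCAAT box and none to the GC box, at a GC content of 43.6%. Over all RefSeq windows 32.7% held GGGCGG, 33.8% CCAAT, 12.4% TATAAA and 28.1% CCACCC. Only exact matches were sought, so variants of an element, such as tataag in the Klf2 and Gm39196 windows, were not counted. A match describes these letters and is not evidence of binding.

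On its own P016 was a promoter of middle strength with a strong preference for the strand of the gene. On the plus strand its activity was 1.37, 1.20 and 1.49 in replicates 1, 2 and 3. On the minus strand it was 0.236, 0.142 and 0.375. Every plus-strand value lay above every minus-strand value. The plus strand was 5.79-fold more active, a log2 difference of 2.53 (SE 0.45, n = 3 replicates, limma adjusted p = 0.0376). Over the 213 fragments of the mix measured alone on both strands 4.23% were called. It was the third in size among the 23 promoters of the locus, behind Fam32a (P013, 3.13) and the Eps15l1 and Gm46043 promoter (P017, 2.68). In the order of the 46 oriented promoters alone, P016 on the plus strand stood at rank 17. Its neighbours there were Cherp (P019 plus, 2.16, 2.09 and 2.00) above and Zfp882 (P001 plus, 1.12, 1.18 and 1.17) below. Neither neighbour differed from it by the adjusted p (0.220 and 0.635). Of the 44 other oriented promoters of the locus, each set against P016 on the same strand, 26 were called 15 of them more and 11 less active. The share called over all single fragments of the mix was 51.7%, with 8.39% higher and 43.3% lower. With the replicate block the 15 higher calls stayed at 15 in number and the lower ones went from 11 to 18. The share over all single fragments with the block is not given here. The most active, Smim7 (P022 plus), reached 19.8, 19.4 and 16.6. The fragments at Cib3 (P011, P012), Hsh2d (P010) and F2rl3 (P026) were below P016 on the plus strand in either orientation. P016 on the minus strand stood at rank 25, close to Hsh2d (P010 plus, mean 0.235) and Tmem38a (P023 plus, mean 0.233).

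**Figure D1:**
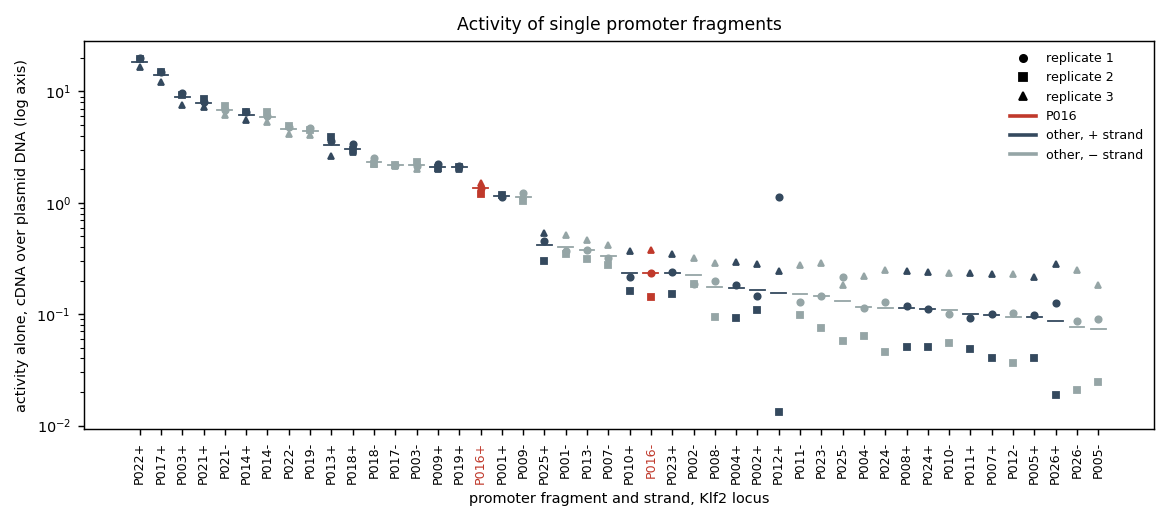
Activity of the 46 oriented promoter fragments of the Klf2 locus measured alone, in descending order of the geometric mean (bar), on a log axis, with a symbol for each of the 3 replicates. P016 (red) stands at rank 17 on the plus strand and at rank 25 on the minus strand, and the spread between replicates widens below an activity of about 0.4 (P001 minus, mean 0.403).

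Most constructs of a cCRE before P016 lay near or below P016 alone, and a small group lay above it. There were 109 such constructs with 47 cCREs. For the plus strand of P016 (60 constructs) the median activity was 1.09, 1.07 and 1.26 in the 3 replicates. For the minus strand (49 constructs) it was 0.246, 0.163 and 0.393. Of the plus-strand constructs 44 lay below P016 alone, and of the minus-strand constructs 21. The median log2 difference from P016 alone was -0.15 over these constructs and -0.24 over all cCRE-promoter constructs of the mix. By limma on log2 activities against the promoter alone, 12 of the 109 were called, 11 higher and 1 lower. The background over the 4941 constructs of this kind was 12.8% in either direction, 6.15% higher and 6.6% lower, and the count for P016 was near it. Each of these calls needs all 3 replicates. Without replicate 1, 2 or 3 limma called 0 constructs, with 12, 18 and 26 at an unadjusted p under 0.05. With the replicate as a block 22 were called, 12 higher and 10 lower, against a background of 20.6%, with 8.16% higher and 12.4% lower. The block thus moved the lower calls from 1 to 10 and the higher ones from 11 to 12. Of the main calls 11 were among the 22.

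The strongest was E007, which covers the start of Zfp617, a zinc-finger gene, at -396.1 kb from P016. Before P016 on the plus strand E007 gave 8.29, 10.7 and 9.15. Before the minus strand it gave 1.70, 1.63 and 2.05. On either strand all 3 values were far above those of P016 alone. The gains were 6.92-fold (log2 difference 2.79, SE 0.18, limma adjusted p = 0.00427) and 7.67-fold (2.94, SE 0.39, adjusted p = 0.0147). E007 was in its plus orientation in both pairs and is itself a promoter, with an activity of 8.61 alone in that orientation. Against the sum of E007 alone and P016 alone, a comparison chosen after the data were seen, the plus-strand pair differed by -0.10 (SE 0.16, adjusted p = 0.613). The minus-strand pair fell below that sum by 2.31 (SE 0.16, adjusted p = 0.00425).

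E097, within the gene Nwd1 and 358.2 kb after P016, was placed before P016 in its minus orientation. It gave 5.96, 5.93 and 4.82 with P016 on the plus strand. The replicates lay close together and all above P016 alone. The gain was 4.11-fold (log2 difference 2.04, SE 0.18, limma adjusted p = 0.00688). Unlike E007, E097 had an activity of only 1.06 alone in this minus orientation, and 2.09 in the plus orientation. The pair exceeded the sum of its parts by 1.20 on the log2 scale (SE 0.17, limma adjusted p = 0.0156). Before P016 on the minus strand E097 gave 1.64, 1.499 and 1.64, a 6.84-fold gain (adjusted p = 0.0161), which differed from the sum by 0.29 (adjusted p = 0.290). Across the 109 constructs 13 were called against the sum of parts, 4 higher and 9 lower, where the background was 16.9%, with 1.32% higher and 15.6% lower. The 4 higher were all with P016 on the plus strand: E097 minus, E061 plus, E083 minus and E057 plus.

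Of the 3 cCREs that start within 25000 bases of P016, E057 was called higher in 1 of 2 constructs and E061 in 1 of 4. E055 was measured with P016 only Downstream. E057 lies between genes, at -7.6 kb. Before P016 on the plus strand E057 plus gave 3.09, 2.95 and 3.20. All replicates were above P016 alone and nearly equal to each other. The gain was 2.28-fold (log2 difference 1.19, SE 0.16, limma adjusted p = 0.0143), and the pair exceeded the sum of its parts by 0.69 (adjusted p = 0.0403). Before the minus strand E057 gave 1.47, 0.626 and 1.21, and the 4.46-fold gain had an adjusted p of 0.0514 (0.0329 with the replicate block). E061, 15.3 kb after P016 and between genes next to Eps15l1, gave 2.48, 3.09 and 4.32 in the plus orientation before P016 plus. It gave 1.44, 1.29 and 1.35 in the minus orientation. The former was 2.39-fold above P016 alone (adjusted p = 0.0369) and the latter 1.01-fold (adjusted p = 0.983). Before P016 on the minus strand E061 plus and minus had a mean log2 activity of -1.17 and -1.76, beside -2.10 for P016 alone. Neither was called.

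The other activating cCREs were E105, E083 and E019, and E046 by its index. E105, within Sin3b, in its plus orientation raised P016 on the plus strand 2.44-fold (2.55, 3.89 and 3.59) and on the minus strand 3.90-fold (0.843, 0.805 and 1.10). Their adjusted p-values were 0.0262 and 0.0368. E083, between genes near Smim7, raised P016 in its minus orientation 2.19-fold and 3.28-fold on the 2 strands (adjusted p = 0.0162 and 0.0477). The second of these calls was lost with the replicate block (adjusted p = 0.0659). E019, between genes near Cyp4f18, had an activity of 0.113 alone, beside a median of 0.120 over all cCREs alone. In its only construct before P016, on the plus strand of P016, it raised the promoter 1.74-fold, with 2.63, 2.32 and 2.12 (limma adjusted p = 0.0418). E046, near Gm51537, gave 1.83, 3.02 and 2.69, and its 1.83-fold difference had an adjusted p of 0.0846.

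The single call in the lower direction was E050 in its minus orientation, which lies between genes at -33.7 kb. It gave 0.609, 0.674 and 0.818 with P016 on the plus strand. All 3 were below every replicate of P016 alone. The level was 0.516 times that of P016 alone (log2 difference -0.95, SE 0.19, limma adjusted p = 0.0348). The plus orientation of E050 gave 0.660, 0.465 and 0.817, a difference of -1.09 with an adjusted p of 0.0539 (0.0368 with the replicate block). The lowest mean index belonged to E040, within Cib3, which encodes a calcium- and integrin-binding protein. Before P016 on the plus strand it gave 0.257, 0.326 and 0.798. The third replicate stood well above the other values, and the difference of -1.73 (SE 0.46) was not called (adjusted p = 0.0747). E030 at the Gm39196 start and E012 within Zfp961 were lower by 0.78 and 0.84 (adjusted p = 0.0570 and 0.0520, 0.0422 and 0.0380 with the block). E044, E078, E112 and E089, the others among the 8 lowest mean indices, had no call, and E112 minus before P016 plus passed with the block (-0.84, adjusted p = 0.0531 and 0.0382).

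The boost index puts the same data on a log2 scale, relative to the middle one of all cCRE constructs with that promoter strand. The mean index per cCRE over both strands of P016 ran from 2.94 (E007), 2.48 (E097) and 1.75 (E057) through 1.19 (E105), 1.17 (E046), 1.14 (E083), 1.10 (E019) and 0.71 (E061) to -1.26 (E040). It was above 1 for 7 of the 47 cCREs and between -0.5 and 0.5 for 32. The mean over cCREs was 0.13 (SD 0.021 between replicates, n = 3). The SD between replicates of a construct's index had a median of 0.23 with P016 on the plus strand and 0.41 on the minus strand, so the weak strand was measured with more error. The index on the plus strand followed that on the minus strand for the 45 oriented cCREs measured with both (Pearson r = 0.84, Spearman rho = 0.69, a description across cCREs that share libraries). It also followed the activity of the cCRE alone, with r = 0.81 and rho = 0.59 over 60 constructs on the plus strand and r = 0.74 and rho = 0.56 over 49 on the minus strand. The absolute distance between cCRE and P016 in the genome gave a Spearman rho of 0.12 and 0.14 with the index on the 2 strands.

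**Figure D2:**
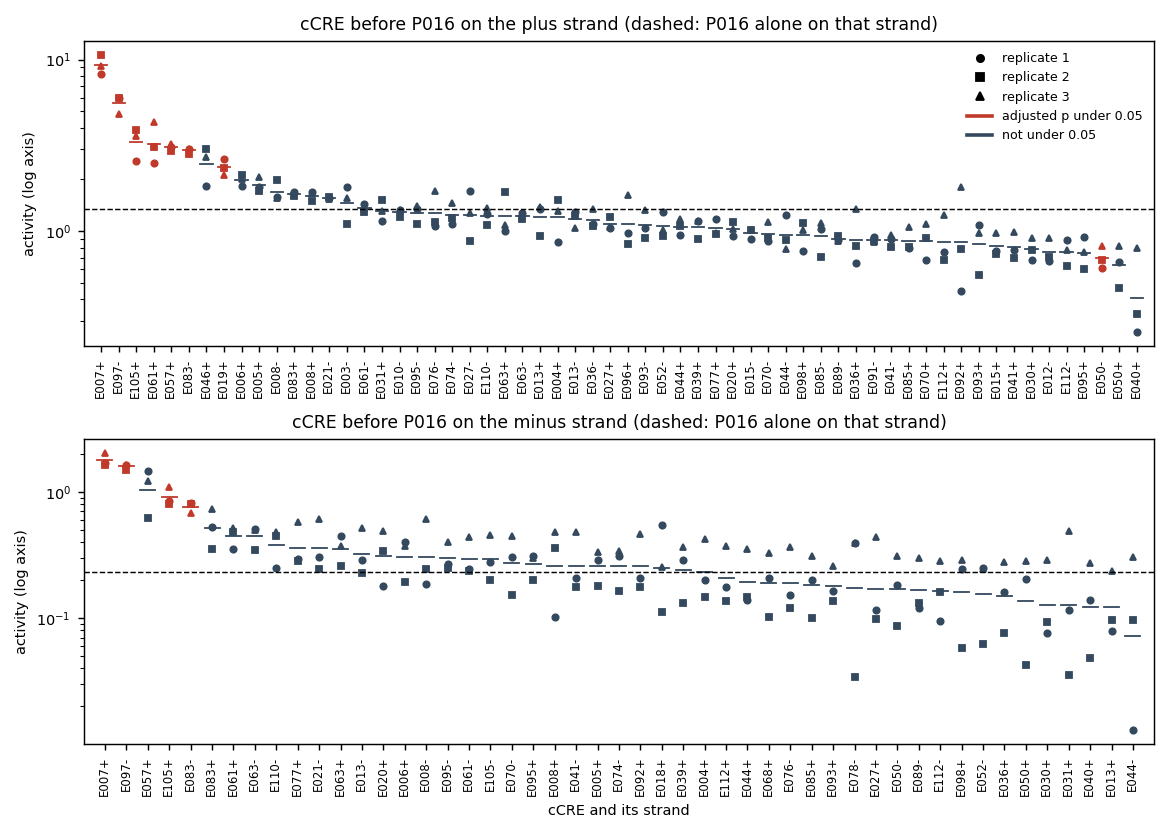
Activity of each construct of a cCRE before P016 on the plus strand (top) and the minus strand (bottom), on log axes in descending order, with 3 replicate symbols and the geometric mean as a bar. Red constructs have a limma adjusted p under 0.05 against P016 alone (dashed line), 7 higher and 1 lower on the plus strand and 4 higher on the minus strand.

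P016 was more active on the plus strand behind most cCREs too. For 45 oriented cCREs measured with both strands of P016 the mean was higher with the plus strand in each, and 41 were called, all more active with the plus strand, against a background of 34% in either direction 30.2% for plus above minus and 3.76% for the reverse. The median log2 difference was 2.21, a 4.63-fold ratio, beside 0.52 over all pairs of the mix. Across the 22 promoters of the locus with at least 10 such pairs this median was the third highest, behind Eps15l1 and Gm46043 (P017, 2.85) and Fam32a (P013, 2.68). E040 plus, E092 plus, E050 plus and E044 minus were not called (adjusted p = 0.172, 0.105, 0.0870 and 0.0658). The gap was smallest with E063 minus (1.46, 2.74-fold) and E095 plus (1.49). It was 1.57 with E057 and 2.85 with E061 plus. Without replicate 1, 2 or 3 limma called 0, 16 and 35 of the 45, all with plus above minus, and at an unadjusted p under 0.05 the counts were 35, 42 and 43.

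The strand of the cCRE gave no calls Upstream. Of 26 pairs of constructs that differed only in the strand of the cCRE limma called 0, with 5 at an unadjusted p under 0.05, against a background of 1.65%, with 1.01% higher and 0.633% lower on the plus strand. The median absolute difference was 0.29, beside 0.32 over all promoters. Among the 5 were those of E083 and E061 before P016 on the plus strand (-0.85 and 1.24, plus minus minus orientation) and of E105 before P016 on the minus strand (1.62). Their adjusted p-values were 0.0583, 0.0966 and 0.101. With constructs below an activity of 0.1 left out, the 3 were called (limma adjusted p = 0.0165, 0.0410 and 0.0470). The share called over all pairs at that setting is not given here.

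With P016 first and the cCRE second, most constructs with the plus strand fell far below P016 alone. Of 146 such constructs with 63 cCREs, 2 had a replicate at 0 and 144 were tested. With P016 on the plus strand in front (47 constructs) the median activity was 0.178, a median log2 difference of -2.92 from P016 alone. With P016 on the minus strand in front (97 tested) the median difference was -0.45. Against P016 alone 39 of the plus-strand constructs were called lower and 0 higher, and 8 of the minus-strand constructs were called higher and 0 lower. These 47 of 144 stand against a background of 43.2% of 5437, with 7.25% higher and 36% lower. With the replicate block 78 were called, 66 lower and 12 higher, against 53.7%, with 42.2% lower and 11.6% higher. For the minus strand in front the block gave 23 lower and 12 higher, where the fit without it gave 0 lower, and for the plus strand it gave 43 lower. Without replicate 1 limma called 2, with 35 at an unadjusted p under 0.05. Against the median construct of the same P016 strand 10 were called, all higher, so the direction of the calls follows the baseline. The background at that baseline was 12.3%, with 11.1% higher and 1.27% lower. Set against the cCRE alone instead, a comparison added after the data were seen, the constructs were close to the second fragment's own level. The median difference was 0.19 with P016 plus in front and 0.33 with P016 minus, and the construct's activity followed that of the cCRE alone (r = 0.75 over 47 and 0.84 over 96 constructs).

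In that comparison 2 of 143 constructs were called, both higher, against a background of 20.7% of all promoters (20.3% higher and 0.335% lower), and the difference from the other promoters was not tested. The first was E008, which overlaps E007 and lies within Zfp617. P016 plus before E008 plus gave 2.39, 1.59 and 2.60, where E008 alone had a mean of 0.203. All 3 replicates were above every replicate of P016 alone. The log2 difference from E008 alone was 3.40 (SE 0.52, limma adjusted p = 0.00592). The second was E031, within Tpm4, with 0.722, 0.762 and 0.758 against 0.148 alone (2.34, SE 0.56, adjusted p = 0.0261). The E031 construct was still below P016 alone (-0.85, adjusted p = 0.0170).

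For 66 oriented pairs both orders were measured. With P016 on the plus strand the construct with the cCRE first was the more active in 24 of 25, and 22 were called, at a median difference of 2.68 (6.404-fold). With P016 on the minus strand it was the more active in 29 of 41, at a median of 0.44, with 1 call in each direction. The 24 calls stand against a background of 42.2% of 3222, with 39% higher and 3.23% lower, where the median was 0.71. E061 plus with P016 plus showed the widest gap, with a mean log2 activity of 1.68 with E061 first and -3.49 with P016 first (5.17, SE 0.49, limma adjusted p = 0.000796). E005 plus, between genes near Zfp709, with P016 minus ran the other way (-1.76, SE 0.31, adjusted p = 0.00588). Without replicate 1 the count of calls was 0, with 15 at an unadjusted p under 0.05, and without replicates 2 and 3 it was 16 and 24.

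**Figure D3:**
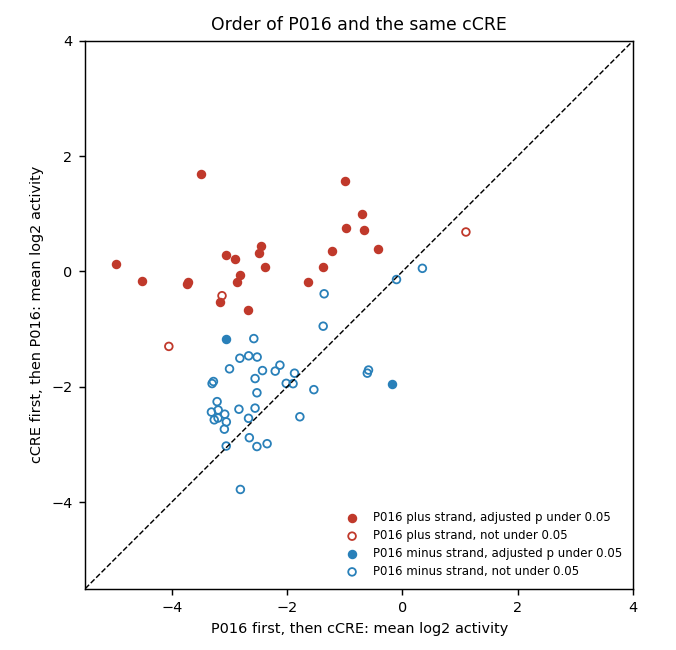
Mean log2 activity over 3 replicates of 66 oriented pairs, with P016 first on the x axis and the cCRE first on the y axis; the dashed line marks equality and filled points have a limma adjusted p under 0.05. Points for the plus strand of P016 (red) lie far above the line in 24 of 25 pairs, and those for the minus strand (blue) lie around it.

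Pairs with an active promoter before P016 were more active than P016 alone. Gains below are over P016 alone. The pairs were not tested against the partner, which brings its own start site, or against the sum of both. Which start was used was not measured. There were 39 constructs of a promoter before P016, and limma called 24 against P016 alone, 22 higher and 2 lower. The background over the 1455 promoter pairs of the mix was 35.8%, with 26.3% higher and 9.55% lower. Without replicate 1 limma called 0, with 19 at an unadjusted p under 0.05, and without replicates 2 and 3 it called 17 and 25. Against the median construct of the same P016 strand 25 were called, 11 higher and 14 lower, against a background of 37.6% at that baseline, with 23.7% higher and 13.9% lower. With P016 on the plus strand the strongest partner was Med26 (P021 plus), the promoter of a Mediator subunit gene. The pair gave 9.08, 8.98 and 7.65. All replicates were far above P016 alone, 6.34-fold on average (log2 difference 2.66, SE 0.16, adjusted p = 0.000881). Med26 alone had 7.92. Smim7 (P022 plus) gave 7.93, 8.81 and 6.78 before P016, a 5.79-fold gain (2.53, SE 0.17, adjusted p = 0.000992), although it had 18.6 alone. The promoter next to Ap1m1 (P014 plus) gave 6.43, 9.41 and 6.09, a 5.32-fold gain. Cherp (P019 plus) gave 4.34, 5.67 and 5.04, 3.70-fold, and the Eps15l1 and Gm46043 promoter (P017 plus) gave 5.198, 4.86 and 4.69, 3.65-fold, against 13.99 alone. Smim7 before P016 on the minus strand gave 6.03, 5.85 and 5.14, against 18.6 for Smim7 alone. The pair was 24.3-fold above the low level of P016 minus alone (4.60, SE 0.38, limma adjusted p = 0.00119).

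The partners that were not called higher were all less active alone than P016 on the plus strand. The promoter at the Cyp4f18 start (P004 minus) gave 0.403, 0.440 and 0.598 before P016 plus. Every replicate was below P016 alone, at 0.351 of its level (log2 difference -1.51, SE 0.21, limma adjusted p = 0.00438). Olfr374 (P007 minus), an olfactory receptor promoter, gave 0.605, 0.546 and 0.821, 0.481 of that level (adjusted p = 0.0136). Hsh2d (P010 minus) and the fragment next to Cib3 (P012 minus) differed by -0.71 and -0.53 and were not called (adjusted p = 0.178 and 0.102), nor was the fragment next to Tpm4 (P008 minus) before P016 minus (-0.50, adjusted p = 0.548). Over the 22 constructs with P016 plus the activity of the pair followed that of the partner alone (r = 0.91, rho = 0.88) with a slope of 0.45 on log2 scales, and over the 17 with P016 minus r was 0.97 and the slope 0.58. Of the partners more active alone than P016 plus, a split made after the data were seen, all 9 before P016 plus and all 8 before P016 minus were called higher. The pair was below the partner alone in 2 of the 9 and in 8 of the 8.

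With P016 first and the other promoter second, 10 of 49 constructs were called against the second promoter alone, 9 higher and 1 lower, beside the 35.8% called over all promoter pairs (26.3% higher and 9.55% lower). The median log2 difference was 0.13. The slope on the second promoter's activity was 0.87 with P016 plus and 0.98 with P016 minus. The largest gain was for P002, a fragment within Zfp882. P016 plus before P002 plus gave 1.16, 0.831 and 0.775, where P002 alone had a mean of 0.165. All replicates were below P016 alone and far above P002 alone (5.50-fold, log2 difference 2.46, SE 0.40, limma adjusted p = 0.00763). The lower one was P016 minus before P018 minus (1.54, 1.26 and 1.48 against 2.32 alone, adjusted p = 0.0184). P018 covers the starts of 1700030K09Rik and Calr3. Without replicates 1, 2 and 3 limma called 0, 1 and 3 of the 49, and at an unadjusted p under 0.05 there were 3, 6 and 13. Against the median construct with the same second promoter 5 were called, 2 higher and 3 lower, beside 37.6% over all promoter pairs. P016 paired with itself Upstream was not analysed here.

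**Figure D4:**
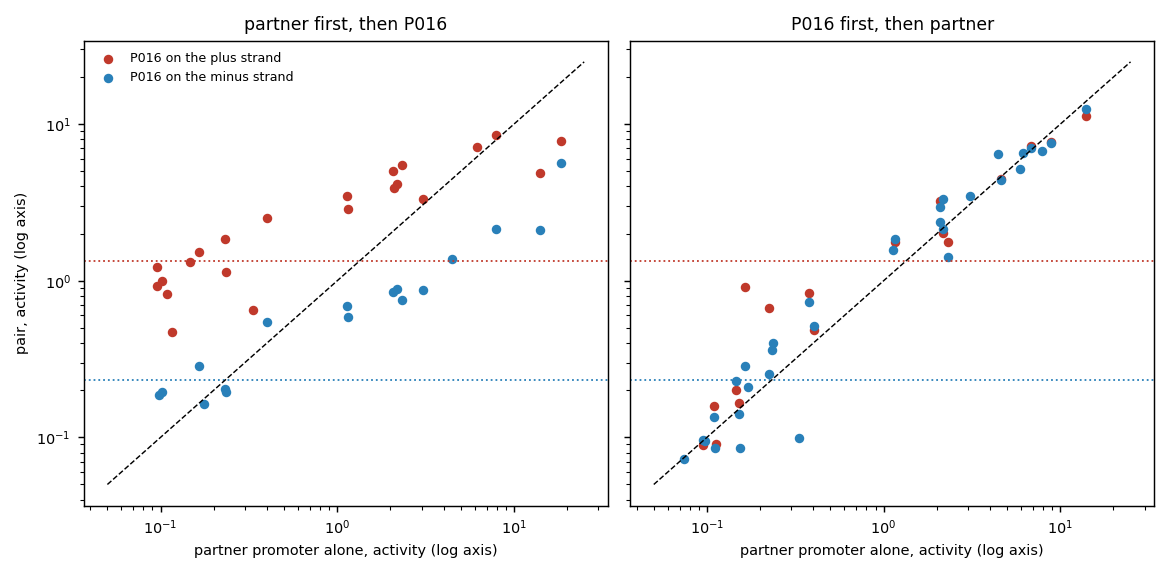
Geometric mean activity of promoter pairs against that of the partner promoter alone, on log axes, with the partner before P016 (left) and P016 before the partner (right), for P016 on the plus (red) and minus (blue) strand. Dotted lines mark P016 alone (1.35 and 0.233) and the dashed line equality with the partner; on the right the pairs run along the dashed line, on the left they rise with a slope of 0.45 and 0.58.

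In the Downstream assay inserts both raised and lowered P016. P016 without an insert had an activity of 0.815, 1.37 and 1.11. Replicate 1 was the lowest of the 3 in all 223 P016 constructs, and the mean over the 40 control inserts (shuffled cCREs and random sequence) was 0.629, 1.06 and 0.899. Against those controls 40 of 140 cCRE constructs were called by limma, 23 higher and 17 lower, and the background over 1364 constructs with 10 promoters was 52.3%, with 37% higher and 15.3% lower. With the replicate as a block, which removes the shift shared by a replicate, 114 were called, 59 higher and 55 lower, against 83.9%, with 56.1% higher and 27.9% lower. Without replicates 1, 2 and 3 the count was 65, 26 and 5. The baseline sets the direction: against P016 without an insert 106 of the 140 lay lower, and 47 were called, 7 higher and 40 lower, against a background of 53%, with 10.6% higher and 42.4% lower. The controls themselves were spread widely. Their boost index, which Downstream is taken over the median of cCRE and shuffled inserts, ran from -1.06 to 1.84 with an SD of 0.69 over 40 constructs, and that of the cCREs from -1.49 to 1.62 with an SD of 0.52. No cCRE lay above the highest control and 3 lay below the lowest. The table lists controls and cCREs under separate sublibraries, so kind of insert and sublibrary cannot be told apart.

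E087 in its minus orientation, between genes near Gm51538 and 271.5 kb after P016, raised P016 most. It gave 1.96, 2.96 and 3.12. Each value was above the mean of the controls and above the empty vector in the same replicate, while single controls reached higher values. The log2 difference from the controls was 1.64 (SE 0.21, limma adjusted p = 0.000119). Its plus orientation gave 0.580, 0.845 and 0.758 and was not called (-0.23, adjusted p = 0.346). With the replicate block limma called this orientation lower (adjusted p = 0.00189). E007 raised P016 in both orientations, with 1.90, 2.53 and 2.30 on the minus strand (1.40, SE 0.18, adjusted p = 0.000132) and 1.24, 1.79 and 1.51 on the plus strand (0.83, SE 0.19, adjusted p = 0.00375). The other cCREs among the 8 highest mean indices were E046 (0.96), E008 (0.89), E011 within Zfp961 (0.75), E006 near Zfp882 (0.71), E010 within Zfp961 (0.69) and E097 (0.67). E007 and E008 overlap and so share sequence.

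The lowest was E030 at the start of Gm39196. In the minus orientation E030 gave 0.199, 0.390 and 0.359. In the plus orientation it gave 0.419, 0.614 and 0.508. All 6 values were below the control mean of their replicate. The differences were -1.47 (SE 0.25, limma adjusted p = 0.000628) and -0.73 (SE 0.19, adjusted p = 0.00866). E075 within 1700030K09Rik in its plus orientation gave 0.266, 0.364 and 0.297 (-1.46, SE 0.19, adjusted p = 0.000111). In its minus orientation E075 gave 0.496, 0.897 and 0.624 (-0.37, limma adjusted p = 0.193, and 0.000238 with the replicate block). E103 within Sin3b, E092 and E096 within Nwd1, E001 within Zfp709, E081 within Med26 and E069 within Eps15l1 made up the 8 lowest, with mean indices from -0.95 to -0.62. Over the 76 cCREs the mean index was -0.003 (SD 0.010 between replicates, n = 3). Near P016, E057 in its plus orientation gave 0.982, 1.44 and 1.30 (0.54, SE 0.20, adjusted p = 0.0369). Its minus orientation gave 0.676, 0.907 and 0.895 (-0.04, adjusted p = 0.862). E055 plus gave 0.744, 1.04 and 0.981 (0.12, limma adjusted p = 0.624, and 0.0722 with the block). E061 plus gave 0.760, 1.16 and 1.11 (0.24, limma adjusted p = 0.347, and 0.00102 with the block).

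Orientation of the insert changed the level Downstream for some cCREs. Of 64 cCREs with P016 measured in both orientations 16 were called by limma, 8 in each direction, against a background of 41.3%, with 23% for plus above minus and 18.3% for the reverse. With the replicate block 57 were called, 32 with plus above minus and 25 the reverse, against 80.6%, with 44.1% and 36.4%, and without replicates 1, 2 and 3 the counts were 33, 6 and 4. The widest gaps were those of E087 (-1.87, plus minus minus, adjusted p = 7.37e-05), E034 within Tpm4 (1.36) and E105 (-1.25). E105 minus was called higher than controls (0.61, adjusted p = 0.0225) and E105 plus lower (-0.65, adjusted p = 0.0148). Upstream it was the plus orientation of E105 that raised P016. The indices of the 2 orientations had r = 0.49 and rho = 0.50 over 64 cCREs, and r = 0.08 over the 20 control sequences.

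Some promoters as inserts differed from the mean of the controls. No promoter insert lay above the highest control and 2 lay below the lowest. The boost index of promoter inserts had an SD of 0.56, beside 0.69 for the controls. Of 43 such constructs 13 were called by limma, 10 higher and 3 lower, against a background of 61.4%, with 46.2% higher and 15.2% lower. With the replicate block 39 were called, 23 higher and 16 lower, against 85.2%, with 58.8% higher and 26.4% lower. Without replicates 1, 2 and 3 the counts were 25, 11 and 4. Against the vector without an insert 10 were called, 2 higher and 8 lower, against 58.8%, with 17.9% higher and 41% lower. Med26 (P021 plus) gave 1.47, 2.20 and 1.83 (log2 difference 1.11, SE 0.20, adjusted p = 0.000789) and P018 minus 1.46, 2.01 and 1.81 (1.05, SE 0.19, adjusted p = 0.000767). A second copy of P016 gave values above the control mean, alike in both orientations. They were 1.00, 1.97 and 1.73 for the plus strand and 1.03, 2.16 and 1.73 for the minus strand. Replicate 1 was the lowest in each, as in all P016 constructs. The boost indices of the P016 inserts were 0.82 and 0.88, while single controls reached up to 1.84. The differences from the control mean were 0.84 (SE 0.25, limma adjusted p = 0.0157) and 0.89 (SE 0.26, adjusted p = 0.0135). Against the vector without an insert they were 0.49 and 0.54 and not called (adjusted p = 0.145 and 0.119). P008 minus near Tpm4 and P004 minus at Cyp4f18 were the lowest (-1.43 and -1.26, adjusted p = 0.000589 and 0.000284). Smim7 (P022), the promoter with the highest activity alone, was not called as an insert without the block (0.41 and 0.40, adjusted p = 0.117 and 0.0913). By limma with the replicate block both orientations were called higher (adjusted p = 1.84e-09 and 1.84e-08). The index of a promoter insert and its activity alone had r = 0.46 and rho = 0.43 over 43 constructs.

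The assays agreed in part on which cCREs act on P016. Over 46 cCREs measured with P016 in both, the mean indices had r = 0.60 and rho = 0.56, and r within single replicates ran from 0.52 to 0.59. With the plus strand of P016 alone, the strand used Downstream, r was 0.61 and rho 0.64 over 43 cCREs, and for the same oriented cCRE r was 0.45 over 59. The spread of the index was wider Upstream (SD 0.81 over cCREs) than Downstream (0.46). E007, E097 and E057 were called higher in both assays, and E050 was called lower in both. For E057 the Downstream call rests on the plus orientation, and against the vector without an insert it was lost (0.19, adjusted p = 0.454). For E050 the call in each assay rests on the minus orientation (Downstream plus, limma adjusted p = 0.134). Against the vector E007 and E097 kept their calls in the minus orientation (limma adjusted p = 0.00139 and 0.0489). They lost them in the plus orientation (0.0632 and 0.389). E050 was called lower than the vector in both orientations. Of the other cCREs called higher Upstream, E083, E019 and E061 were not called Downstream and E105 was called in opposite directions in its 2 orientations. With the replicate block Downstream, E019 was called higher in both orientations and E083 higher in the plus orientation. E061 was then called higher in the plus and lower in the minus orientation. By the fit without the block another 9 were called higher and 5 lower Downstream only, and 24 in neither. E046 and E008 were among the 9 and E030 among the 5. A call in only one assay is not a test of the difference between assays, which was not run.

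**Figure D5:**
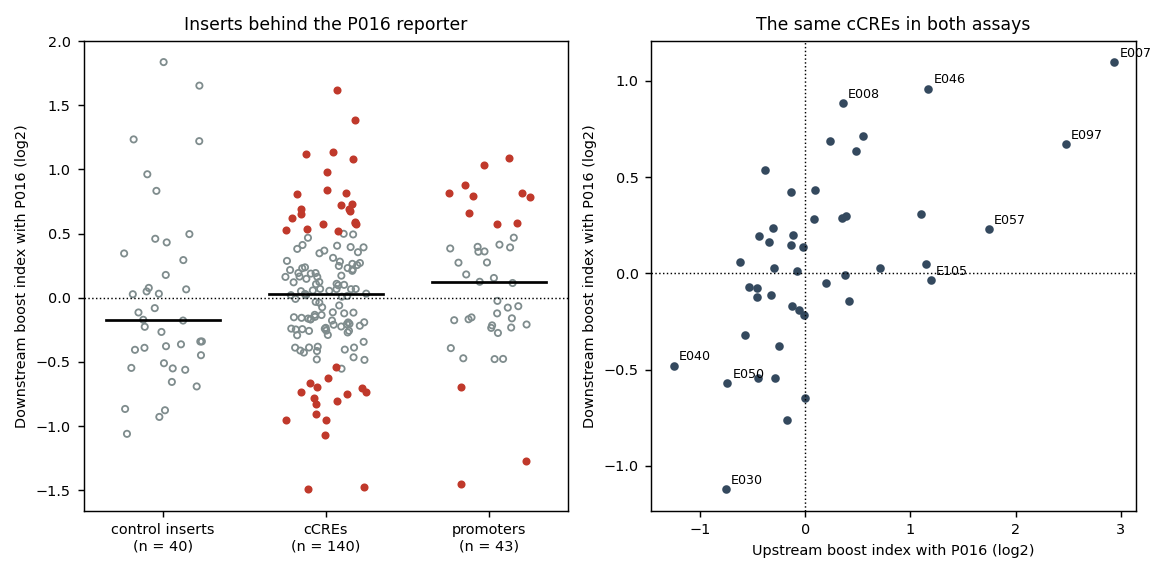
Left, Downstream boost index (log2) of 40 control, 140 cCRE and 43 promoter inserts with the P016 reporter, points spread sideways for visibility, medians as bars and constructs with a limma adjusted p under 0.05 against the controls in red; the cCREs run from -1.49 to 1.62 within nearly the same range as the controls. Right, mean Upstream against mean Downstream index for 46 cCREs (r = 0.60), with E007 highest and E040 and E030 lowest on the 2 axes.

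Whether a cCRE acts on P016 differently from how it acts on the other promoters of the locus was tested on replicate boost indices. Upstream limma called 0 of 47 cCREs, with 6 at an unadjusted p under 0.05, and 0.146% of 1372 combinations over all promoters. The largest differences were for E019, with an index of 1.05 with P016 and -0.08 with the mean of 19 other promoters (difference 1.13, SE 0.17), and for E057, with 1.74 against 0.69 over 21 others (1.05, SE 0.20). The limma adjusted p was 0.104 for both, and the index of E019 with P016 rests on 1 construct. The index with P016 followed the mean over the other promoters with r = 0.90 and rho = 0.79. By r this was the highest among 22 promoters, closely ahead of P001 (0.897 and 0.893). Each r was taken over the promoter's own cCREs, 47 for P016 and 76 for P001. By Pearson r of indices over shared cCREs the promoters most like P016 were Hsh2d (P010, r = 0.88 over 47 cCREs) and Tmem38a (P023, r = 0.88 over 47). By Spearman rho the order was another, with P018 (0.79) and P017 (0.78) highest, beside 0.73 for P010 and 0.74 for P023.

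Downstream 47 of 76 were called by limma, 19 higher and 28 lower with P016, against a background of 56.1%, with 26.2% higher and 29.9% lower. The sizes were small, with a median absolute difference of 0.14 and a maximum of 0.57. The lowest were E096 (an index of -0.64 with P016 against -0.07 with 9 others, difference -0.57, SE 0.051, adjusted p = 8.17e-05), E001 (-0.57), E029 near Gm39196 (-0.53) and E069 (-0.42). E029 had an index of 0.73 with the other promoters and 0.20 with P016. With P016 it was not called against controls (limma adjusted p = 0.389, and 0.00682 with the replicate block). The highest were E083 (0.38, SE 0.068), E035 within Rab8a (0.36), E046 (0.33) and E011 (0.33). E083 had an index of 0.06 with P016 and -0.32 with the others. E055, the cCRE at -16.3 kb, had 0.11 with P016 and 0.43 with the others (-0.33). The index with P016 followed the mean of the others with r = 0.88 over 76 cCREs. This was the fourth highest of 10 promoters, each taken over its own cCREs. By r the promoters most alike were the Eps15l1 and Gm46043 promoter (P017, 0.85 over 76 cCREs) and Fam32a (P013, 0.85 over 75). By Spearman rho Fam32a came first (0.86), then Rab8a (P009, 0.81) and P017 (0.81).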

How the data were processed

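Activities are the authors' deposited ratios of cDNA to plasmid DNA barcodes per biological replicate. Per the labels the plasmid DNA (2 technical replicates) was the input. The submitters' processing notes name Bowtie2 and mm10. Barcode counting and scaling are not given in the sources used here. Boost indices were deposited by the authors on a log2 scale, and their recomputation from the activities matched within 0.001 for all 109 Upstream and 223 Downstream constructs with P016. Samples were grouped by title, 6 cDNA samples of 46, and 22 other value columns were not used.

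Tests used limma 3.58.1 (lmFit, eBayes; R 4.3.3) on log2 activity, 3 values of a construct against 3 of its baseline, fitted on all constructs of a kind in the mix and adjusted over all of them (Benjamini-Hochberg, 0.05). The fit was run on simulated data for some of the comparisons. The simulated noise was independent between construct and baseline and between constructs. It thus lacked the shared deviations given below, and does not show how they affect the calls. A construct listed at 0 in any replicate was not tested. The selectivity test needed at least 3 other promoters. Both values of a comparison come from the same cDNA sample, so the replicate number pairs them. The correlation of their deviations was 0.02, 0.57 and 0.74 (replicates 1 to 3) for cCRE before promoter and 0.91, 0.84 and 0.85 Downstream. Fits with the replicate as a block were alternatives. Others were leaving out each replicate, a pseudocount of 0.01, a minimum activity of 0.1, other baselines, and single strands. The baselines of summed fragments and of the cCRE alone, and the strand test of single fragments, were added after the data were seen.

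Named were the 8 highest and 8 lowest mean indices per assay, cCREs within 25000 bases of P016, the 4 highest and 4 lowest called differences from other promoters, the 5 highest and 5 lowest promoter partners, and cCREs called alike in both assays. A few others were named after their values were seen. The members and lists were chosen with earlier results of these data known. Genes were taken from RefSeq (GRCm38.p6): a fragment is within a gene if its midpoint is, and exon or intron was not resolved. For P016 the plus strand is that of Klf2; whether the strand of other fragments follows the genome or their gene was not settled. Plots used matplotlib 3.10.9 and Python 3.11.15.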

Additional observations from a re-analysis of the deposited data

How the results depend on the processing

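Counts of calls moved with the replicates used, the replicate block, the minimum activity and the baseline. Leaving out 1 replicate in turn gave 0 calls in each case for a cCRE before P016 (12 with all, and 12 to 26 at an unadjusted p under 0.05 by limma), 2 to 45 for P016 before a cCRE, 0 to 25 for a promoter before P016, 0 to 3 for P016 before a promoter, 5 to 65 for Downstream cCREs, 4 to 25 for Downstream promoters, 0 to 35 for the strand of P016, 4 to 33 for the strand of a Downstream cCRE and 0 to 24 for the order. With the replicate block the counts were 22, 78, 114, 39 and 57 for a cCRE before P016, P016 before a cCRE, Downstream cCREs, Downstream promoters and the strand of a Downstream cCRE, and no other total count of calls moved by over 1.5 times. Within the totals, the order with P016 minus went from 1 to 6 higher and from 1 to 3 lower. With a minimum activity of 0.1, a cCRE before P016 gave 26 calls (14 higher, 12 lower) and the strand of an Upstream cCRE 3. The share called over all constructs is not given here for the minimum activity, the leave-out fits or the order with the block. Those counts therefore cannot be read as particular to P016. P016 before a cCRE gave 10 calls against the median construct and 2 against the cCRE alone, and P016 before a promoter 5 against the median construct. The mean Upstream index of 0.131 was 0.24 with the plus strand only, 0.0227 with the minus strand only and 0.12 to 0.162 without 1 replicate, and the Downstream one ran from -0.0189 to 0.0251. The agreement of the assays kept an r of 0.565 to 0.613 without 1 replicate. Against the sum of fragments the differences of E007 with P016 plus and minus turned to -0.10 and -2.31. The cause of these shifts was not tested. With 3 replicates and barcode numbers not analysed here, the spread between replicates was wider with P016 on the minus strand, as the index shows.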
